A study of Homo sapiens with 6 samples.

Results

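AXL, TYRO3 and MERTK are receptor tyrosine kinases, and GAS6 and PROS1 are their ligands. These 5 genes were taken by name from the 35856 genes of the deposited table. They were proposed with the comparison of LINC00862 and NC already known, in which the count and FPKM of AXL were among the largest falls. Their values between the groups are therefore a description, with no test. All 5 passed the filter on low counts.

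The series holds 6 RNA libraries of HCCLM3, a human cell line derived from hepatocellular carcinoma. In 3 of them the cells had received a LINC00862 vector, and in the other 3, called NC, an empty vector, so both groups carried a vector. Whether the sequenced cells were a clone, a stable pool or transiently transfected is not given in the sources used here. The labels do not say that the libraries came from separate cultures, so p-values measure only the spread between libraries, which may be technical. Total counts were 59648337, 58241123 and 59243210 in NC replicates 1, 2 and 3, and 68229070, 58781905 and 58913560 in the LINC00862 replicates. No 2 libraries agreed within sampling noise. The RNA of LINC00862 was low in both groups, with 11, 21 and 6 counts in NC and 145, 121 and 76 in LINC00862. Its mean FPKM was 0.0507 in NC and 0.449 in LINC00862. LINC00862 itself was higher in each library of its group (log2 fold change 3.22 with a standard error of 0.53; adjusted p = 0.000583, edgeR quasi-likelihood test, Benjamini-Hochberg method).

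The labels call the cells hepatoma cells, and the defining hepatocyte markers were at or near 0 in NC. ALB had 0, 0 and 7 counts there, HNF4A had 0, 0 and 4, and TTR had 0 in each NC library. The 12 hepatocyte markers summed to 7.79, 7.83 and 7.98 FPKM in NC and to 2212, 1964 and 1800 FPKM in LINC00862, with FGA, a fibrinogen chain, the most abundant in both. FPKM scales the fragments of a gene by its length and by sequencing depth. Most of the LINC00862 sum was fibrinogen, since FGA, FGB and FGG had means of 796, 550.4 and 626.7 FPKM there. The other markers stayed low or moderate in LINC00862. TF had a mean of 15.5 FPKM, ALB 1.51, TTR 0.464 and HNF4A 0.0447, and APOA1 had 0, 0 and 4 counts. Of the 11 hepatocyte markers tested, 9 were up-regulated and 2, AFP and SERPINA1, were down-regulated, and AFP had 0 counts in each LINC00862 library. HNF4A, 1 of the 9, was not called with limma-trend on log2(FPKM + 1) (adjusted p = 0.0701). The groups differed across most of the transcriptome, since 64.2% of the 20741 genes tested were called at a false discovery rate of 0.05.

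The receptors of this family bind GAS6 or PROS1, which carry a vitamin K-dependent Gla domain and attach to phosphatidylserine on the surface of dying cells. Binding brings receptors together and starts kinase signalling through PI3K and AKT, GRB2 and SRC family kinases, and in phagocytes it drives engulfment. In carcinomas, including those of the liver, AXL is best known from cells with mesenchymal traits, invasive growth and resistance to kinase inhibitors.

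AXL (ENSG00000167601), the receptor with the highest affinity for GAS6, is placed by the table at 41219223 to 41261766 of chromosome 19, plus strand. The 250 bases before its RefSeq start (GRCh38.p14, chr19:41218973-41219222, plus strand) and before that of GAS6 (chr13:113864077-113864326, minus strand) are shown 5′ to 3′ because these were the receptor and the ligand with the most RNA in NC. The deposited span of GAS6 ends at 113836044 and does not reach its RefSeq start at 113864076. Capitals mark GC boxes, the letters GGGCGG on either strand, which SP1 and its relatives are known to bind.
AXL promoter: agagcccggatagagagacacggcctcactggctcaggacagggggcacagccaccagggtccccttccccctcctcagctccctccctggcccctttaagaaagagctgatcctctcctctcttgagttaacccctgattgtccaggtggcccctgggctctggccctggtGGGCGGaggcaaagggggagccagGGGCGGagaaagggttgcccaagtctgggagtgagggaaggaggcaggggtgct
GAS6 promoter: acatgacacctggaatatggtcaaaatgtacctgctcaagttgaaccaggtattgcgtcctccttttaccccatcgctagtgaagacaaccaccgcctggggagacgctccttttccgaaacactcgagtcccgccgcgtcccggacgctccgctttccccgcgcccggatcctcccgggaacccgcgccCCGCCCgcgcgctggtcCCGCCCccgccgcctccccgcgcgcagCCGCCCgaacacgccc
The AXL window held 2 GC boxes, beginning 78 and 54 bases before the start, and the GAS6 window held 3, beginning 60, 43 and 16 bases before it. Of 35116 windows of the same length, 42.6% held at least 1 GC box. Neither window held an AP-1 site (TGANTCA, in 6.57% of windows) or a TEAD site (GGAATG on either strand, in 11.9%). RefSeq matched all 5 members and lists another start for AXL and for TYRO3. The window before the other AXL start (chr19:41226505-41226754) held 1 TEAD site, 212 bases before it, and no GC box or AP-1 site. A match is a description of letters, and a missing one says only that these letters are not in the window.

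AXL had 51470, 35820 and 44734 counts in the NC libraries and 127, 78 and 219 counts in the LINC00862 libraries. Its FPKM was 151, 107 and 131 in NC and 0.323, 0.225 and 0.634 in LINC00862. The groups did not overlap, and the lowest NC value was 169 times the highest LINC00862 value. By mean FPKM AXL was 329-fold lower in LINC00862. The fitted log2 fold change was -8.14 (standard error 0.46), which ranked 114 from the largest fall among the genes tested. Fewer cells with AXL and less AXL RNA per cell cannot be told apart in bulk libraries. The 3 LINC00862 libraries differed more from each other (coefficient of variation 54.2%) than the NC libraries did (17.2%), and replicate 3 was the highest of them.

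TYRO3 (ENSG00000092445, chromosome 15), the relative of AXL best known from the nervous system, had 1945, 1500 and 1625 counts in NC and 651, 593 and 309 in LINC00862. Its FPKM was 2.72, 2.13 and 2.26 in NC and 0.788, 0.831 and 0.425 in LINC00862. The groups did not overlap, and the mean was 3.48-fold lower in LINC00862 (fitted log2 fold change -1.63, standard error 0.23). LINC00862 replicate 3, in which AXL was highest of its group, was the lowest for TYRO3. TYRO3P, a partial copy of TYRO3 on the same chromosome, had at most 19 counts in a library and was not tested, so reads placed there would be few beside those of TYRO3.

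MERTK (ENSG00000153208, chromosome 2), the engulfment receptor of macrophages and retinal pigment epithelium, was near the limit of detection. It had 30, 35 and 7 counts in NC and 20, 1 and 13 in LINC00862. The groups overlapped, and 1 of the 6 libraries was below the floor of 3 counts. Its FPKM was 0.0764 ± 0.0483 (SD, n = 3) in NC and 0.0326 ± 0.0278 (SD, n = 3) in LINC00862, and the fitted log2 fold change of -0.99 had a standard error of 0.90. No difference in MERTK is read from counts this low and this uneven between libraries.

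The order of the receptors was AXL, TYRO3 and MERTK in each NC library, with 55.6, 50.2 and 57.9 times as much FPKM of AXL as of TYRO3. In LINC00862 the ratio of AXL to TYRO3 was 0.410, 0.271 and 1.49. TYRO3 was above AXL in replicates 1 and 2 and below it in replicate 3, so that these neighbours did not separate in LINC00862. MERTK was the lowest receptor in each of the 6 libraries.

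GAS6 (ENSG00000183087, chromosome 13), the ligand of all 3 receptors, had 31594, 35870 and 38990 counts in NC and 5065, 4674 and 3732 in LINC00862. Its FPKM was 79.3, 91.3 and 97.1 in NC and 11.0, 11.8 and 9.25 in LINC00862. The groups did not overlap, and GAS6 was 8.36-fold lower in LINC00862 by mean FPKM (fitted log2 fold change -2.90, standard error 0.17). Unlike AXL it remained a well covered gene in both groups, and its coefficient of variation was 10.2% in NC and 12.1% in LINC00862.

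PROS1 (ENSG00000184500, chromosome 3) encodes protein S, an anticoagulant cofactor made by hepatocytes and a ligand of TYRO3 and MERTK. It had 3893, 2817 and 2351 counts in NC and 891, 786 and 701 in LINC00862. Its FPKM was 11.2, 8.18 and 6.68 in NC and 2.21, 2.25 and 1.98 in LINC00862, 4.04-fold lower by the means (fitted log2 fold change -1.83, standard error 0.17). The groups did not overlap, and PROS1 was lower in the group in which most hepatocyte markers were up-regulated. The copy PROS2P was not analysed here.

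**Figure D1:**
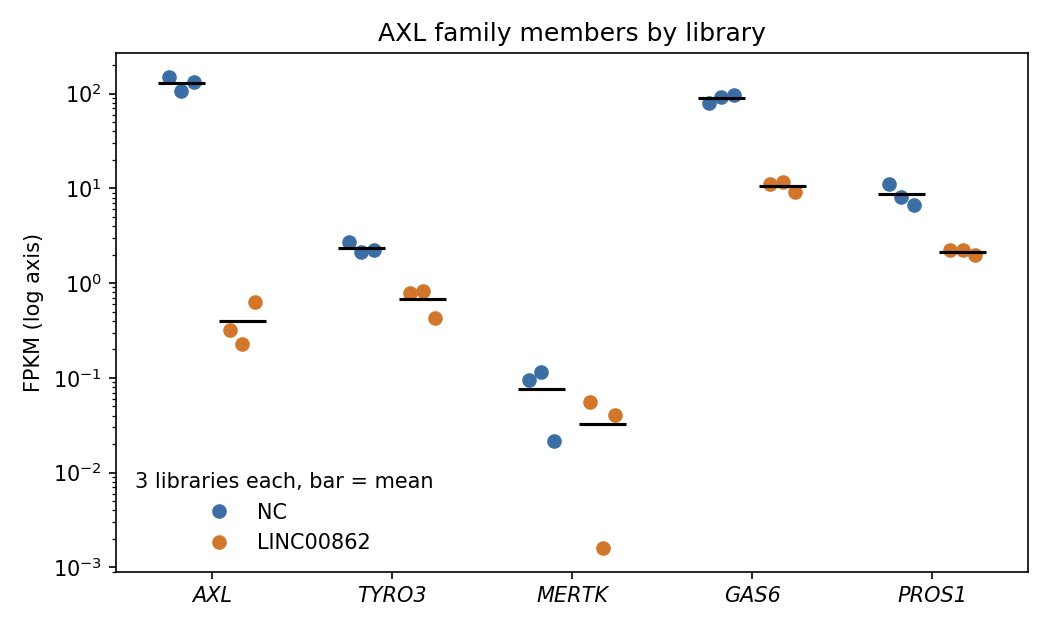
FPKM of the 5 members in each of the 6 libraries on a log axis (points: 3 NC and 3 LINC00862 libraries, bars: group means). AXL, TYRO3, GAS6 and PROS1 did not overlap between the groups, and MERTK, below 0.2 FPKM in each library, did.

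The plot of FPKM by library shows 4 of the 5 members lower in LINC00862 without overlap, beside 36.6% of all genes tested that were lower without overlap and 71.1% that did not overlap in either direction. By the edgeR test, 29.8% of all genes tested were called lower, and no call of a member is set beside this. Nothing is read from the count of members, since the members were chosen on this comparison. Together the members summed to 245, 209 and 237 FPKM in NC and to 14.4, 15.1 and 12.3 FPKM in LINC00862. AXL made up 61.9%, 51.2% and 55.2% of this sum in NC and 2.24%, 1.49% and 5.14% in LINC00862, where GAS6 made up 76.5%, 78.0% and 75.0%. In FPKM, the ligand GAS6 was at 0.524, 0.855 and 0.744 times the receptor AXL in NC and at 34.1, 52.3 and 14.6 times in LINC00862. In FPKM, receptors made up more of the family than ligands in each NC library, and ligands more than receptors in each LINC00862 library. FPKM depends on the length given to a gene, and the order in NC replicate 2 rests on it, since by counts GAS6 (35870) was not below AXL (35820) there.

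The list of the other receptor tyrosine kinases places AXL among its class. With the 3 members, 56 receptor tyrosine kinases were in the table, and INSRR and EPHB1 were not analysed here. AXL ranked 1 by FPKM in each NC library and 24, 24 and 18 in the LINC00862 libraries, and TYRO3 ranked 16 in each NC library and 17, 17 and 21 in LINC00862. AXL held 48.6%, 47.2% and 52.0% of the summed FPKM of these kinases in NC and 0.30%, 0.193% and 0.678% in LINC00862. The sum without AXL was 160, 119 and 120 FPKM in NC and 107, 116 and 92.9 FPKM in LINC00862. Most of the difference in receptor kinase RNA between the groups was therefore that of AXL. The leading receptor in LINC00862 was MET, the receptor of hepatocyte growth factor, in replicates 1 and 2 and the collagen receptor DDR1 in replicate 3.

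Of the other receptor tyrosine kinases, 46 were tested, of which 20 were up-regulated, 13 were down-regulated and 13 were not called. That is 71.7% of those tested, beside 64.2% of all genes, and their median log2 fold change was 0.38 against 0.11 over all genes. The largest rises among those with at least 1 FPKM in a group were MST1R, STYK1, ERBB3 and DDR1. MST1R, the receptor of macrophage-stimulating protein, rose from 0.665 ± 0.106 to 8.83 ± 0.614 FPKM (SD, n = 3; log2 fold change 3.89, standard error 0.17, adjusted p = 2.32e-07 from edgeR). DDR1 rose from 4.29 ± 0.573 to 21.8 ± 2.56 FPKM (log2 fold change 2.52, adjusted p = 8.73e-07). ERBB3, a partner of the EGF receptor family with little kinase activity of its own, and STYK1 rose with log2 fold changes of 2.62 and 3.15.

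The largest falls were PTK7, FGFR1, FGFR2 and PDGFRB. PTK7, a pseudokinase of Wnt signalling, fell from 11.8 ± 1.03 to 0.0600 ± 0.00688 FPKM (SD, n = 3; log2 fold change -7.41, standard error 0.17, adjusted p = 2.63e-08 from edgeR). The log2 fold changes of FGFR1, FGFR2 and PDGFRB were -7.29, -7.11 and -5.86. EPHA2, an ephrin receptor and by mean FPKM the most abundant receptor kinase in NC after AXL, fell from 26.6 ± 1.91 to 3.03 ± 0.432 FPKM (log2 fold change -2.96, adjusted p = 3.72e-07), and EPHB4 fell with a log2 fold change of -2.00.

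EGFR and MET are known to interact with AXL. EGFR had 8.90 ± 4.07 FPKM in NC and 5.37 ± 0.495 FPKM in LINC00862 (SD, n = 3; log2 fold change -0.53, adjusted p = 0.0853 from edgeR) and ERBB2 had a log2 fold change of -0.16 (adjusted p = 0.384). Without NC replicate 3, EGFR passed the threshold (adjusted p = 0.0195). MET had 17.6 ± 6.03 and 22.9 ± 3.94 FPKM, overlapping between the groups, with a log2 fold change of 0.57 (adjusted p = 0.0349). That call was lost with library size scaling (adjusted p = 0.185), without the filter on low counts (adjusted p = 0.0596), in both limma fits, and without NC replicate 2 or 3 or LINC00862 replicate 1 or 2. KIT, the receptor of stem cell factor, was up-regulated (log2 fold change 1.45, adjusted p = 0.000356).

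The genes beside the members were taken from the coordinates of the table. AXL is overlapped on the opposite strand by AC011510, which had 34, 24 and 14 counts in NC and 0 in each LINC00862 library. The second cDNA strand was marked with dUTP, which keeps the strand of the RNA in a library, but whether the counts used it is not given in the sources used here. Reads of a gene and its antisense partner may therefore be mixed, though these counts are few beside those of AXL in NC. CYP2S1, a cytochrome P450 gene 11684 bases before AXL, fell from 236, 198 and 149 counts to 0, 0 and 7 (log2 fold change -6.16, standard error 0.92, adjusted p = 0.000335 from edgeR). The 7 counts are all in replicate 3, and without it the fit is against 0 counts, where its value (log2 fold change of CYP2S1 -10.59) depends on the prior count and is no bound. HNRNPUL1, an RNA-binding protein gene 730 bases beyond AXL, had a log2 fold change of -0.56 (adjusted p = 0.00918), a call lost with upper quartile scaling (adjusted p = 0.0584).

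At GAS6 each tested neighbour was down-regulated. GAS6-DT, a divergent transcript whose table start lies 36 bases before the RefSeq start of GAS6, had 685, 638 and 638 counts in NC and 14, 21 and 12 in LINC00862. It fell from 4.91 ± 0.200 to 0.108 ± 0.0393 FPKM (SD, n = 3; log2 fold change -5.28, standard error 0.31, adjusted p = 1.05e-06 from edgeR), further than GAS6 in the fitted values, though the difference between them was not tested. TMEM255B, 3554 bases to the other side, fell with a log2 fold change of -4.59 (adjusted p = 5.77e-07). GAS6-AS1 overlaps GAS6 on the opposite strand and had 411, 202 and 93 counts in NC and 57, 23 and 15 in LINC00862 (log2 fold change -2.81, adjusted p = 0.00285). The table ends GAS6 at 113836044, short of its end at 113864067 in GENCODE 29, so the distance to GAS6-DT is given from the RefSeq start.

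Beside PROS1, ABBA01000935 was not called (adjusted p = 0.543 from edgeR). Beside TYRO3, the pseudogene ELOCP2 and the MAX partner MGA were not called (adjusted p = 0.621 and 0.1), though MGA was called lower without NC replicate 3 (adjusted p = 0.0283). Beside MERTK, the anaphase-promoting complex gene ANAPC1 fell (log2 fold change -0.99, adjusted p = 0.00211) and TMEM87B was not called (adjusted p = 0.351), while RTRAFP1, which overlaps MERTK on the opposite strand, had at most 10 counts and was not tested.

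**Figure D2:**
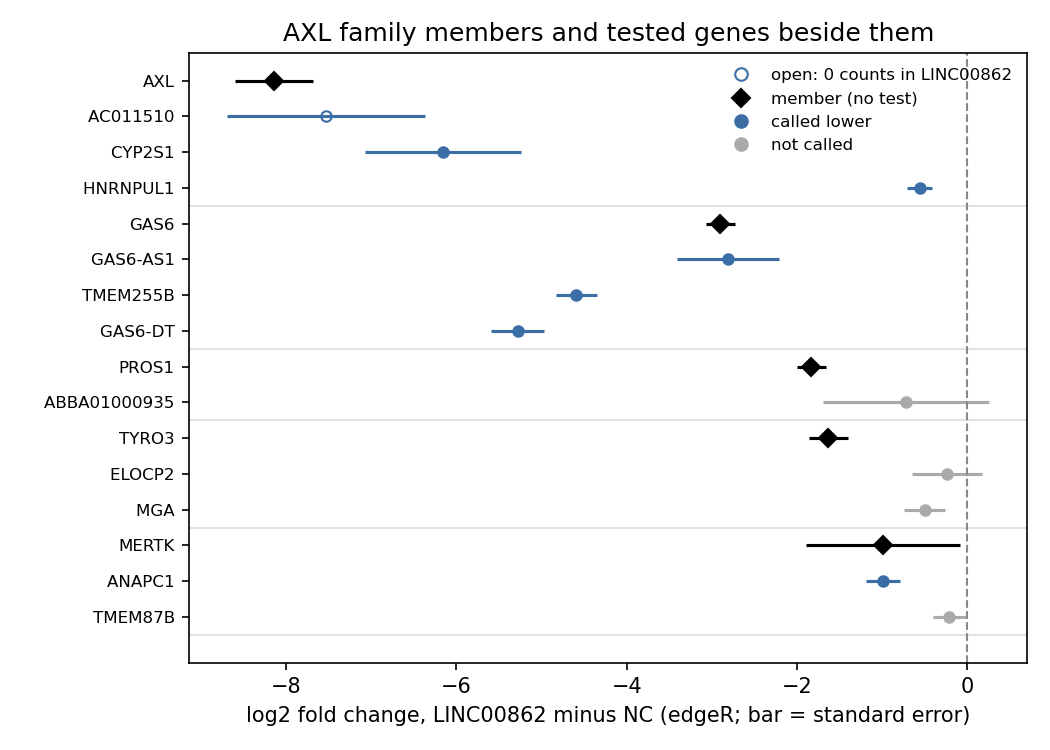
Fitted log2 fold change (LINC00862 minus NC, 3 libraries each) of the members (diamonds, no test) and the tested genes beside them that are named in the text (circles), with bars of 1 standard error. The tested neighbours of AXL and GAS6 are all called lower, with HNRNPUL1 at -0.56 the nearest to 0, and the open circle of AC011510 is a fit against 0 counts.

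Besides GAS6 and PROS1, TUB, TULP1 and LGALS3 have been reported as ligands. LGALS3, galectin-3, had 49.7 ± 9.15 FPKM in NC and 31.6 ± 1.75 FPKM in LINC00862 (SD, n = 3; log2 fold change -0.49, adjusted p = 0.0525 from edgeR) and was below the threshold with library size scaling (adjusted p = 0.0103), with limma-trend at pseudocounts of 1 and 0.1 (adjusted p = 0.0105 and 0.00952) and without NC replicate 1 (adjusted p = 0.00192). TUB was not called (adjusted p = 0.893), and TULP1 was not tested. TUB was chosen after its values were seen.

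GAS6 and PROS1 need the vitamin K cycle for their Gla domains. The list tested held 16 genes, those of this cycle and of other Gla proteins together with FURIN, C4BPA and C4BPB. Of these 16, 8 were up-regulated, 3 were down-regulated and 5 were not called, with a median log2 fold change of 0.97. C4BPA and C4BPB were 2 of the 8. GGCX, the carboxylase that makes Gla residues, rose from 4.54 ± 0.304 to 9.37 ± 0.886 FPKM (SD, n = 3; log2 fold change 1.22, adjusted p = 3.53e-05 from edgeR). VKORC1, the vitamin K reductase and the most abundant of the list, was not called (log2 fold change -0.29, adjusted p = 0.273) but was called lower without NC replicate 1 (adjusted p = 0.0405). C4BPA, the chain of C4b-binding protein, which carries protein S in plasma through its C4BPB chain, rose from 0.112 ± 0.0370 to 30.6 ± 3.34 FPKM (log2 fold change 8.22, adjusted p = 4.25e-08), and C4BPB rose with it (log2 fold change 6.77, adjusted p = 1.08e-06). The RNA of protein S and that of its carrier thus differed in opposite directions.

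The clotting factor F7 was up-regulated (log2 fold change 7.68, adjusted p = 8.28e-06 from edgeR). PRRG1, a Gla protein of the membrane, was down-regulated (log2 fold change -2.98, adjusted p = 1.34e-05), while its relatives PRRG2 and PRRG4 were up-regulated. VKORC1L1 had a log2 fold change of -0.52 (adjusted p = 0.0329), and that call was lost with upper quartile scaling (adjusted p = 0.149), with the replicate block (adjusted p = 0.0507) and without any 1 of the LINC00862 replicates. GGCX, C4BPB, PRRG2 and PRRG4 were chosen after their values were seen.

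AXL can be cut from the surface by ADAM10 and ADAM17, and the remaining stub by gamma-secretase. Of 8 tested genes of shedding and cleavage, 3 were up-regulated, 2 were down-regulated and 3 were not called, with a median log2 fold change of 0.08. ADAM10 fell (log2 fold change -0.85, adjusted p = 0.0106 from edgeR), and ADAM17 was not called (log2 fold change -0.39, adjusted p = 0.186). Of the gamma-secretase subunits, APH1A rose from 40.5 ± 2.62 to 94.8 ± 19.2 FPKM (SD, n = 3; log2 fold change 1.39, adjusted p = 7.64e-05), PSEN2 rose (log2 fold change 0.83) and APH1B fell (log2 fold change -1.19). NCSTN was called higher (log2 fold change 0.45, adjusted p = 0.024 from edgeR), with overlap between the groups. With library size scaling, both limma fits or the replicate block, 2 genes of the list were called higher. ADAM17 and NCSTN were chosen after their values were seen.

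Of 32 adaptors and signal transducers of these receptors, all of them tested, 10 were up-regulated, 15 were down-regulated and 7 were not called, with a median log2 fold change of -0.44. The kinase SRC fell from 5.20 ± 0.785 to 0.169 ± 0.0607 FPKM (SD, n = 3; log2 fold change -4.72, standard error 0.27, adjusted p = 1.02e-06 from edgeR). The largest rises were VAV3 and VAV1, exchange factors for small GTPases, with log2 fold changes of 7.96 and 6.44. VAV2 was down-regulated (log2 fold change -0.71, adjusted p = 0.00253), so members of the same family were called in opposite directions. SHC1, the most abundant of the list, rose from 50.1 ± 8.03 to 78.7 ± 13.1 FPKM (log2 fold change 0.83, adjusted p = 0.00121). VAV2 was chosen after its values were seen.

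PIK3R2, a regulatory subunit of PI3K also chosen after its values were seen, had 4910, 3862 and 4440 counts in NC and 2120, 15 and 1424 in LINC00862. Replicate 2 of LINC00862 stood far below its group, and PIK3R2 was not called (log2 fold change -1.81, standard error 1.01, adjusted p = 0.144 from edgeR). Without that library the log2 fold change was -1.23 (adjusted p = 0.000932), and with all libraries PIK3R2 was called lower by limma-trend on log2(FPKM + 1) (adjusted p = 0.0204) but not on log2(FPKM + 0.1).

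Of 20 tested genes of phosphatidylserine exposure and engulfment, the process these receptors serve in phagocytes, 5 were up-regulated, 8 were down-regulated and 7 were not called, with a median log2 fold change of -0.35. MFGE8, a bridging protein that links phosphatidylserine to integrins, fell from 12.6 ± 0.735 to 0.168 ± 0.0404 FPKM (SD, n = 3; log2 fold change -6.01, adjusted p = 6.92e-08 from edgeR). ITGB3, the beta chain of such an integrin, fell with a log2 fold change of -5.22 (adjusted p = 4.28e-06). HAVCR1, a phosphatidylserine receptor, and GULP1, an engulfment adaptor, rose with log2 fold changes of 6.90 and 6.52. CALR, the most abundant of the list, had 407.8 ± 43.7 and 405.3 ± 53.6 FPKM and was not called (log2 fold change 0.16, adjusted p = 0.438).

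Of 18 tested transcription factors that have been linked to the AXL promoter, 6 were up-regulated, 8 were down-regulated and 4 were not called, with a median log2 fold change of -0.32. FOSL1, an AP-1 subunit, fell from 57.1 ± 3.80 to 1.58 ± 0.483 FPKM (SD, n = 3; log2 fold change -4.98, standard error 0.27, adjusted p = 7.21e-07 from edgeR) and was the most abundant factor of the list in NC. FOS and FOSL2, which share its family, rose with log2 fold changes of 2.82 and 1.94, and FOSL2 was the most abundant in LINC00862. TEAD1, a DNA-binding partner of YAP1, fell with a log2 fold change of -2.28 (adjusted p = 6.54e-05). TEAD3, TEAD4, YAP1, WWTR1 and JUN were also called lower, TEAD2 was not called, and the counts of TEAD factors called were the same under DESeq2, upper quartile and library size scaling. In the other direction, MZF1, JUNB, FOSB and EPAS1 were called higher (log2 fold changes 1.45, 1.37, 1.33 and 1.56). SP1, which is known to bind GC boxes such as those marked in the AXL window, was not called (log2 fold change 0.03, adjusted p = 0.924) but was called higher without NC replicate 1 (log2 fold change 0.37, adjusted p = 0.0307). Its relative SP3 was called lower (log2 fold change -0.75, adjusted p = 0.00681). Those named beyond FOSL1, FOS, FOSL2 and TEAD1 were chosen after their values were seen.

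**Figure D3:**
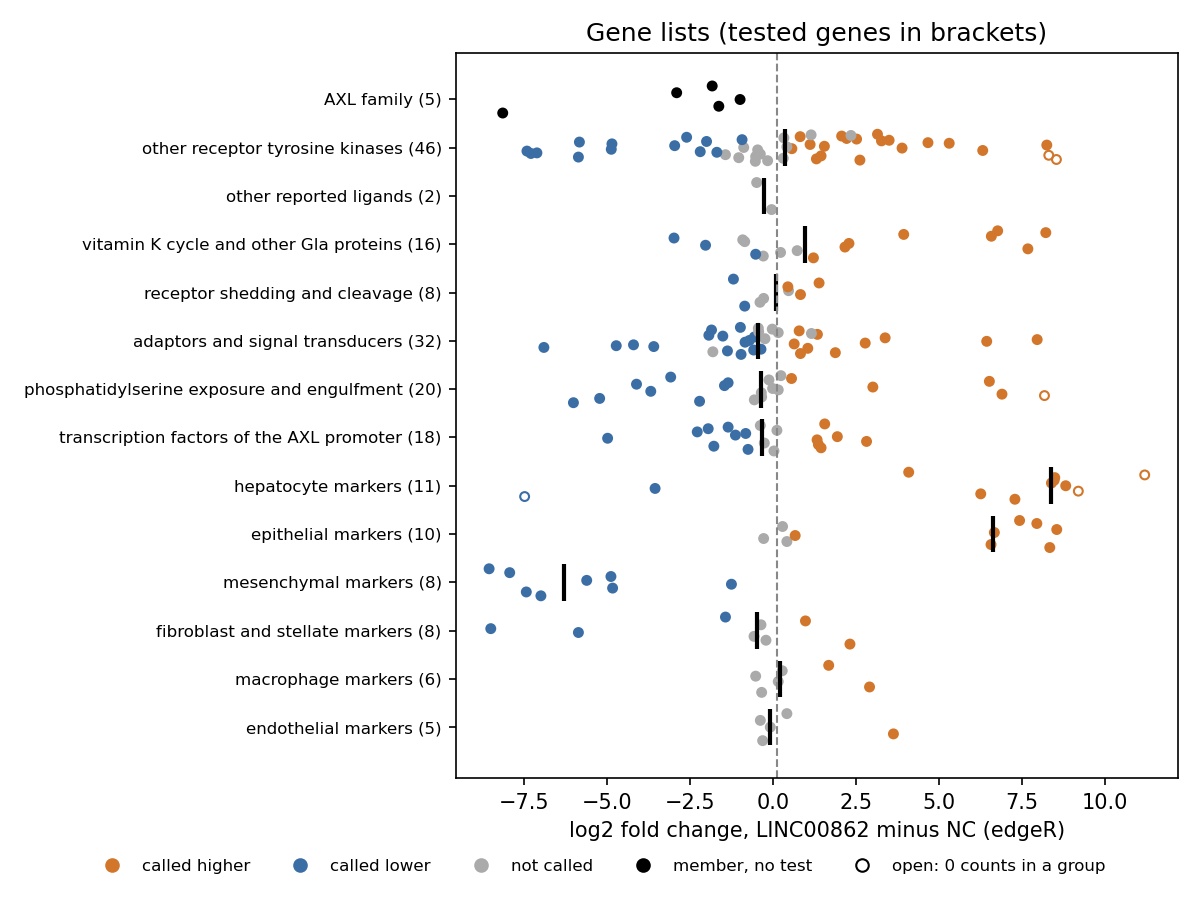
Fitted log2 fold change (LINC00862 minus NC, 3 libraries each) of the tested genes of each list, with a black bar at the median of each list other than the members and a dashed line at the median of all genes tested, 0.11. The pathway lists spread to both sides, apart from the 2 tested ligands, both below 0, while the 8 mesenchymal markers are all called lower and 7 of 10 epithelial markers higher. Open circles are fits against 0 counts in a group.

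The 6 pathway lists together held 96 tested genes, of which 32 were up-regulated, 36 were down-regulated and 28 were not called. The share called was 70.8%, beside 64.2% of all genes tested.

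Markers of cell type moved with AXL. All 8 mesenchymal markers were down-regulated (median log2 fold change -6.30), and this held under DESeq2, upper quartile and library size scaling. They summed to 572.1, 632.6 and 622.4 FPKM in NC and to 5.70, 5.76 and 5.92 FPKM in LINC00862, with VIM the most abundant in both, and TWIST1 and TWIST2 had 0 counts in LINC00862 replicates 1 and 3. Of 10 epithelial markers, 7 were up-regulated and 3, KRT7, KRT8 and ESRP2, were not called (median log2 fold change 6.62). ESRP2 was called higher with DESeq2 (adjusted p = 0.0369) and with upper quartile scaling (adjusted p = 0.0124), KRT7 with upper quartile scaling (adjusted p = 0.0308) and without NC replicate 3 (adjusted p = 0.0202), and KRT8 was called lower without NC replicate 1 (adjusted p = 0.0357). They summed to 252.7, 309.5 and 375.9 FPKM in NC and to 657, 618 and 563.2 FPKM in LINC00862, with KRT18 the most abundant. The call of KRT18 was lost without NC replicate 2 (adjusted p = 0.06, edgeR) or LINC00862 replicate 1 (adjusted p = 0.068). The median of the hepatocyte markers was 8.39, or 6.51 with the 3 tested genes at 0 in a group set against a floor of 3 counts per library. Their part in the levels of AXL, TYRO3, GAS6 and PROS1 was not tested, and a change within the cells and a difference in the kind of cells between the groups cannot be told apart.

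Markers of other cells that carry AXL family genes in liver were low or mixed. Of 8 fibroblast and stellate markers, 2 were up-regulated, 3 were down-regulated and 3 were not called. THY1 fell from a mean of 42.2 to 0.101 FPKM (log2 fold change -8.5). PDGFRB and ACTA2 fell with log2 fold changes of -5.86 and -1.43, and COL1A1 and LUM rose with 2.32 and 0.98. They summed to 49.9, 47.1 and 58.3 FPKM in NC, where THY1 was the most abundant, and to 12.7, 12.6 and 16.2 FPKM in LINC00862, where COL1A1 was. The macrophage markers summed to 2.59, 2.70 and 2.98 FPKM in NC and to 11.8, 10.7 and 5.93 FPKM in LINC00862, where most of it was CD68 in each library, and of 6 tested, CD68 and MRC1 were up-regulated. C1QA had 0, 15 and 8 counts in NC and 0, 4 and 3 in LINC00862. The endothelial markers summed to 1.80, 1.24 and 1.44 FPKM in NC, led by VWF in replicates 1 and 3, and to 5.53, 5.96 and 4.48 FPKM in LINC00862, led by CDH5, the 1 of 5 tested that was called, and it was higher. The part of these markers in the levels of the AXL family was not tested.

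The 5 tested genes whose profile was nearest to that of AXL, by the mean absolute difference of log2(FPKM + 0.1) over the 6 libraries, were AL161431 (0.341), BEX1 (0.460), FSTL1 (0.516), CA9 (0.587) and MYL9 (0.639). Their FPKM lay between 68.1 and 151 in the NC libraries and between 0.324 and 0.523 in the LINC00862 libraries. Levels near those of AXL follow from this choice of genes, and shared regulation was not tested. AL161431 had 107, 90.4 and 127 FPKM in NC and 0.407, 0.430 and 0.493 FPKM in LINC00862. CA9 is a carbonic anhydrase induced by hypoxia, and MYL9 is a light chain of smooth muscle and non-muscle myosin.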

How the data were processed

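The authors deposited 1 table with a count of reads per gene, not normalized, and FPKM, which the authors scaled by transcript length and mapped fragments, for each of the 6 libraries. The submitters' processing notes name cutadapt 1.9, HISAT2 2.0.4, StringTie 1.3.4d, UMI-tools, DESeq2, edgeR and hg38, without roles. Libraries were grouped by sample title, and columns were matched by name. The count test was that of edgeR 4.0.16 under R 4.3.3 (filterByExpr, TMM, quasi-likelihood test, Benjamini-Hochberg adjustment over 20741 genes, false discovery rate 0.05), and the code was tested on simulated counts. Standard errors came from the test statistic. Alternatives used DESeq2 1.42.0, limma 3.58.1, other scalings and filters, a replicate block and leaving out each library. Summaries used pandas 2.3.3 on Python 3.11.15. Promoters came from RefSeq (GRCh38.p14) and gene spans from GENCODE 29. The members and lists were chosen with earlier results of these data known. Genes named are the members, LINC00862, overlapping and nearest tested genes, copies, the 5 nearest profiles, all markers, the 4 largest rises and falls and the 5 most abundant receptor kinases per group, and in other pathway lists the 2 largest rises and falls and the most abundant, though some genes the rule takes are not reported here. Rises and falls were taken among called genes with a mean of at least 1 FPKM in a group. With 3 libraries per group, an exact permutation test cannot give a two-sided p below 0.1, and none was run. The floor of 3 counts covers counting error only.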

Additional observations from a re-analysis of the deposited data

How the results depend on the processing

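Each member kept its direction in all 13 alternative fits and in the ratio of mean FPKM. The fitted log2 fold change of AXL was -6.55 with limma-trend on log2(FPKM + 1) and lay from -8.73 to -7.84 across the fits without 1 library, lowest without LINC00862 replicate 3. TYRO3 was at -1.01 with limma-trend on log2(FPKM + 1), and GAS6 at -2.69 with upper quartile scaling. MERTK was at -0.06 and -0.39 with limma-trend at pseudocounts of 1 and 0.1, and lay from -1.53 to -0.46 without 1 library. The pseudocount compresses low values, and the cause of the other shifts was not tested. Libraries with the same number did not deviate together, so no pairing was used (correlations -0.05, -0.03 and -0.01), and with the replicate block 12098 genes were called, against 13321, with AXL at -8.28, GAS6 at -2.89, PROS1 at -1.81, TYRO3 at -1.67 and MERTK at -1.05. Of the 118 genes counted below, which leave out ADAM17, NCSTN, JUNB, FOSB, MZF1 and EPAS1, VKORC1L1 lost its call under the block. The total counts of receptor kinases, pathway genes and markers called stayed within 1.5 times, from 30 to 34, 51 to 71 and 32 to 36, while some lists did not. With a fold change of at least 2, adaptors called lower went from 15 to 8, and 1 gene was left of the shedding list in each direction and of the fibroblast markers called higher. At a false discovery rate of 0.01, 1 gene was left of the shedding list called lower and 1 of the vitamin K list called lower, as for the vitamin K list without LINC00862 replicate 1 or 3. LGALS3 made 1 ligand called lower where it passed, and without NC replicate 1, 1 epithelial marker was called lower, against 0. Log2 fold changes depend on the scaling, with which the median over all genes tested was 0.11 (TMM), 0.16 (DESeq2), 0.32 (upper quartile) or -0.05 (library size). These 118 genes are the other ones taken by the rule or chosen after their values were seen, without the members. Over them and 14 settings, 1592 of 1652 values kept their direction and side of the threshold. Of the rest, 21 lost it, 15 gained it and 24 changed sign, none of these called. With upper quartile scaling, TMEM87B was at 0.00, ERBB2 at 0.05, COL1A2 at 0.00, VWF at 0.13 and TUB at 0.17, and TUB was at 0.01 with DESeq2. With library size scaling SP1 was at -0.15 and TEAD2 at -0.04, and with limma-trend at pseudocounts of 1 and 0.1 SP1 was at -0.09 and -0.09 and TEAD2 at -0.05 and -0.06. CALR was at -0.01 in both limma fits. Without 1 library, COL1A2 lay from -0.40 to 0.01, LYZ from -0.07 to 0.57 and VWF from -0.79 to 0.26. SP1 lay from -0.14 to 0.37, called at 0.37, and TUB from -0.20 to 0.14. LINC00862 reached 3.83, GAS6-AS1 lay from -3.42 to -2.22, F7 from 7.07 to 8.76 and VAV3 from 7.35 to 9.34, and HAVCR1 reached 7.53 and GULP1 7.19. The cause was not tested.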
